A study of Homo sapiens with 4 samples.

Results

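The HOX gene clusters were examined as 38 regions with an ATF3 peak, out of 44826 regions in the whole series. A region joins all listed peaks, of any of the 4 libraries, that share at least 1 bp, and it was taken where it overlapped one of 4 spans of hg19. These were HOXA (chr7:27120000-27260000), HOXB (chr17:46595000-46815000), HOXC (chr12:54325000-54455000) and HOXD (chr2:176945000-177060000), 605 kb in all. The peaks come from CUT&Tag, in which an antibody, here against ATF3, guides a transposase, so that DNA near the bound factor is cut and given sequencing adapters. The cells were SW480, an established human colorectal cancer line, grown for 24 h with full medium (2 libraries) or with cystine-restricted medium (2 libraries). The cell line, antibody and library kit were shared by both media, and no control library made with another antibody or none was analysed here. The labels say only that the 2 libraries of a medium are separate samples, so the spread between them may be technical. The material is a bulk of cells, in which more cells with bound ATF3 and more binding per cell cannot be told apart.

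HOX genes encode homeodomain transcription factors that give cells their position along the body axis. They lie side by side in 4 clusters, and within a cluster their order on the chromosome follows the order of the body parts they pattern, from anterior (low numbers) to posterior (high numbers). In adult tissues the clusters are held in extended domains of Polycomb-repressed or of active chromatin, and the colon keeps its own pattern of expressed HOX genes. ATF3 is a stress-induced factor of the bZIP family that binds the cAMP response element (CRE) and AP-1 sites. In the RefSeq gene table the 39 HOX genes were found with 11 in HOXA, 10 in HOXB and 9 each in HOXC and HOXD. HOXB1 lies at the low-coordinate end of its cluster, and HOXA13 and HOXB13 lie at the high end of theirs, while HOXC13 and HOXD13 lie at the low end and HOXC4 and HOXD1 at the high end. No annotation of hg19 was used, so regions are placed within a span and no region is tied to a single gene, and expression of marker genes of the line was not measured.

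Because ATF3 has known target letters, the RefSeq promoters of HOX genes (GRCh38.p14, 250 bases before to 50 after a start site) were searched on both strands. They cover 26 promoter windows of 20 of the 39 genes. None held the full CRE TGACGTCA, the AP-1 site TGAGTCA or the amino acid response element TGATGCAA, which 1.84%, 4.96% and 0.870% of all 34943 promoter windows hold. The CRE half-site TGACG, which is also part of the full CRE, was in 8 of the 26 windows, or 30.8%, against 24.5% of all windows. The half-sites of HOXA and HOXB, the clusters with most regions, are shown because they are the only letters of the ATF3 site found there. Windows of HOXD3, HOXD8 and HOXD11 held half-sites too, which are not shown, so half-sites were not confined to the clusters with most regions. Each line gives 30 bases of the gene's strand, the minus strand in all 6, 5′ to 3′, with the half-site in capitals (CGTCA is the half-site on the other strand). The strand was checked on 2984 pairs of overlapping promoter windows from opposite strands, and all 2984 were reverse complements where they overlap.
HOXA3 (chr7:27118400-27118429): ggatttaagtTGACGtatgaccacgtgagc
HOXA6 (chr7:27147865-27147894): gccgccgccgCGTCAgctggtgcgatttgc
HOXA9 (chr7:27165585-27165614): gacgggcacgTGACGcgcacggccaatggg
HOXA11 (chr7:27185417-27185446): gaacaccgagTGACGatctgttgcttcccc
HOXA11 (chr7:27185236-27185265): tagatttccaCGTCAgcttacgtctccaaa
HOXB1 (chr17:48531193-48531222): aagatgttttTGACGcttccatgtcgctct
These positions are of GRCh38.p14 and cannot be set beside the hg19 positions of the peaks. A match describes letters only and was not tested for binding.

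Each HOX cluster carried ATF3 peaks, but most HOX regions were seen in 1 library only. Of the 38 regions, 16 lay in HOXA, 14 in HOXB, 4 in HOXC and 4 in HOXD. A peak in all 4 libraries was found at 5 regions, 2 in HOXB, 2 in HOXC and 1 in HOXA. This is 13.2% of the HOX regions (95% Wilson interval 5.75 to 27.3), against 23.0% of all regions. A single library accounted for 26 of the 38 regions, or 68.4% (52.5 to 80.9), against 46.4% of all regions. Of these 26, 23 came from a cystine-restricted library, 15 from replicate 1 and 8 from replicate 2, and 3 from a full-medium library. That is 88.5% (71.0 to 96.0) cystine-restricted, against 78.5% of all regions seen in 1 library. The intervals cover counting error over regions, which are not replicates, and no test of these shares was run. With peaks up to 1 kb apart joined, a setting chosen after the data were seen, 21 of 33 HOX regions, or 63.6%, were in 1 library, against 40.2% of all regions.

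**Figure D1:**
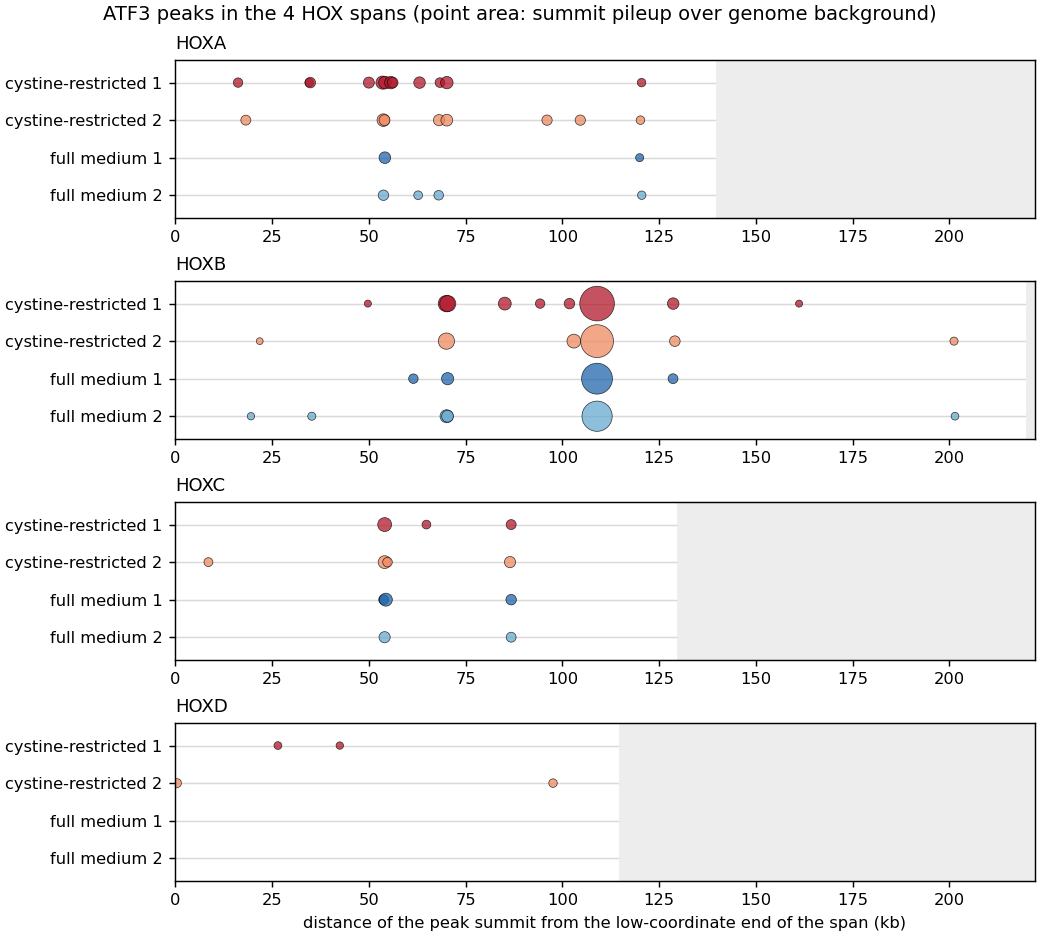
Position of each ATF3 peak in the 4 HOX spans: distance of the summit from the low-coordinate end of the span in kb on the x axis, 1 row per library, point area proportional to the summit pileup over the genome background, grey beyond the end of a span. The HOXB region at 109 kb is the highest in every library, HOXA peaks crowd between 50 and 70 kb, and HOXD has points in the cystine-restricted rows only.

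The share of HOX peaks found again in the other library of the same medium was lower than that of the whole list in each of the 4 libraries. Of the 26 HOX peaks of cystine-restricted replicate 1, 9 overlapped a peak of replicate 2, which is 34.6% (19.4 to 53.8) against 63.9% for the whole list. In the other direction it was 9 of 20, or 45.0% (25.8 to 65.8), against 74.0%. In full medium it was 5 of 9 for replicate 1, or 55.6% (26.7 to 81.1) against 67.7%, and 5 of 12 for replicate 2, or 41.7% (19.3 to 68.0) against 61.2%. In both cystine-restricted libraries the share of the whole list lay above the HOX interval, and in both full-medium libraries it lay inside it. These are descriptions, and the difference was not tested. The HOX regions seen in 1 library had a median −log10 q of 4.18 (range 1.34 to 9.61) against 3.67 for all regions in 1 library, where 1.3 is the lowest value listed. Their median fold was lower, 4.12 against 4.31.

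The number of HOX peaks was higher under cystine restriction. Cystine-restricted replicates 1 and 2 had 26 and 20 peaks in the 4 spans, and full-medium replicates 1 and 2 had 9 and 12. The means were 23 ± 4.24 and 10.5 ± 2.12 peaks (SD, n = 2 each), a ratio of 2.19, and each cystine-restricted library exceeded each full-medium library by 1.67 to 2.89 times. For all chromosomes the same ratio was 1.73. An exact permutation test (two-sided) gave p = 0.33, and 2 libraries against 2 cannot give less. Relative to its whole list, the HOX share was 0.0768% (0.0524 to 0.113) and 0.0676% (0.0437 to 0.104) of peaks in the cystine-restricted libraries and 0.0516% (0.0271 to 0.0980) and 0.0627% (0.0359 to 0.110) in the full-medium libraries. The shares did not overlap between media, but they differed by only 0.015 percentage points, within the counting error of each (95% Wilson intervals; two-sided exact permutation p = 0.33, again the smallest possible). The shares overlapped with the spans widened by 50 kb, where they were 0.0975% and 0.0946% against 0.0860% and 0.0993%. When every list was cut to its top peaks, as many as the shortest list holds, the numbers overlapped: 12 and 9 against 9 and 11 peaks, a ratio of 1.05 (two-sided exact permutation p = 1.0), or shares of 0.0688% and 0.0516% against 0.0516% and 0.0630%. With the spans widened by 50 kb on each side the ratio was 1.79, close to that of all chromosomes.

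By cluster, the gap between media was widest in HOXA, and HOXB and HOXC overlapped. HOXA had 12 and 8 peaks under cystine restriction and 2 and 4 in full medium, a ratio of 3.33. HOXB had 9 and 6 against 4 and 6, a ratio of 1.5, and its lowest cystine-restricted library did not exceed its highest full-medium library. HOXC had 3 and 4 against 3 and 2, so that its libraries overlapped too. HOXD had 2 and 2 against 0 and 0. By the two-sided exact permutation test p was 0.33 for HOXA and HOXD and 0.67 for HOXB and HOXC. Whether the clusters differ from each other was not tested. The genome background pileup, which follows the number of tags kept, was 1.3 and 1.08 in the cystine-restricted and 1.11 and 1.32 in the full-medium libraries, so the library of each medium with the higher background also had more HOX peaks. The part of depth in the HOX peak number was not tested.

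**Figure D2:**
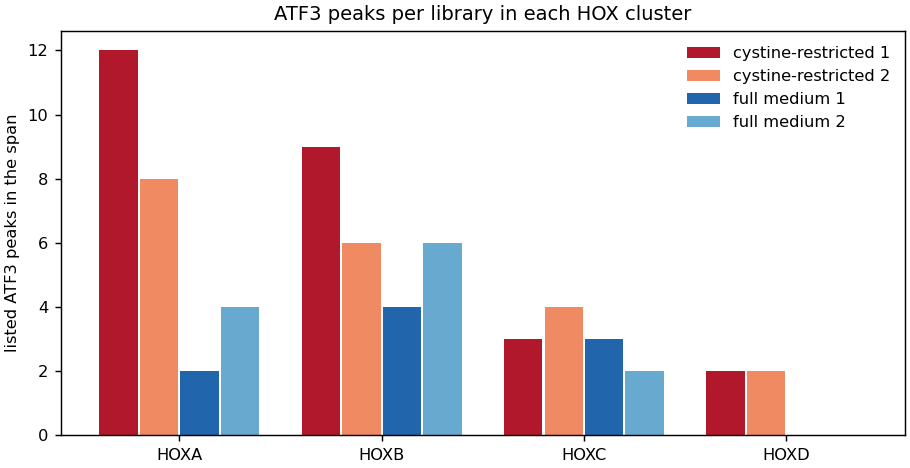
Number of listed ATF3 peaks (y axis) in each HOX cluster (x axis), with 1 bar per library. HOXA shows the widest gap, 12 and 8 against 2 and 4, the bars of HOXB and HOXC overlap between media, and HOXD has no full-medium peak.

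Regions reproducible in a medium were few. Both cystine-restricted libraries had a peak at 7 HOX regions and both full-medium libraries at 5, the same 5 that were in all 4. At 1 HOX region ATF3 peaks were gained, that is, both cystine-restricted libraries listed one and full medium had none. It is 1 of 7, or 14.3% (2.57 to 51.3), against 27.6% of all regions reproducible under cystine restriction. None of the 5 was lost (listed by both libraries in full medium and never under cystine restriction), which allows a share of up to 43.4% by the Wilson limit, against 1.56% of all regions reproducible in full medium. The remaining 6 HOX regions had peaks in 2 or 3 libraries that mixed the media. At a −log10 q of at least 5, or with the same number of top peaks per library, no HOX region was gained. Without cystine-restricted replicate 1 or 2, which requires a single library of that medium, 10 of 19 or 16 of 25 HOX regions of the remaining library were gained. Without full-medium replicate 1, 3 of 8 were gained and 2 regions were lost. Without full-medium replicate 2, 1 of 7 was gained and 1 region was lost. The gained and lost shares of all regions were not computed in these settings, so HOX cannot be set against them there.

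The strongest HOX region by far lay in HOXB at chr17:46703158-46704702, 1545 bp wide and 109 kb from the HOXB1 end of the span. Its summit pileup, the number of overlapping tags, was 217 and 163 under cystine restriction (replicates 1 and 2) and 147 and 168 with full medium (replicates 1 and 2). Divided by the genome background of each library these were 167 and 150.4 against 133 and 127, so that cystine-restricted libraries lay above full-medium ones. The direction turned when each library was centred on its median over common regions, with a log2 change of −0.28 (unadjusted p = 0.016, adjusted p = 0.11 by limma). The 4 summits fell within 14 bp of each other, at position 46703969 in 3 libraries and 46703955 in full-medium replicate 1. Among the 10331 regions in all 4 libraries its height exceeded 98.7% and its width 96.1%. The authors' fold enrichment over the local background was 11.2, 11, 10.6 and 10.5 in the same order of libraries. The log2 change of height was 0.29 ± 0.14 (SE), with an adjusted p of 0.094 by limma over all 10331 regions, and it was below the median of 0.53 over these regions.

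The HOX region that rose lay in the same cluster, at 70 kb, at chr17:46664944-46665548. Its summit pileup was 49 and 40 tags under cystine restriction and 23 and 31 tags in full medium. Over the genome background this was 37.8 and 36.9 against 20.8 and 23.5, and the media did not overlap. The summits spread over 305 bp. In full-medium replicate 1 the only peak had its summit at 46665351, against 46665046 to 46665077 for the highest summits of the other libraries. Peaks near 46665351 held 47 tags in cystine-restricted replicate 1 and 26 in full-medium replicate 2. The heights compared were thus not all of 1 peak. The log2 change was 0.76 ± 0.24 (SE), with an adjusted p of 0.0096 by limma, and both cystine-restricted libraries exceeded both full-medium libraries. It was the only one of the 5 HOX regions in all 4 libraries that passed, while 43.2% of all common regions were called higher and 0.407% lower. At 2 of the 5 the unadjusted p was under 0.05 with a higher level, against 52.4% of all common regions, and no HOX region was called lower, with 0 at an unadjusted p under 0.05. The call was lost when each library was centred on its own median (0.19, adjusted p = 0.68 by limma), with the fold over local background (0.36, adjusted p = 0.32) and without cystine-restricted replicate 1 (0.74, adjusted p = 0.10) or replicate 2 (0.84, adjusted p = 0.054). Without full-medium replicate 1 the HOXB region at 109 kb had a log2 change of 0.32, against a median of 0.59 over all common regions in that setting.

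In HOXA 1 region was in all 4 libraries, at chr7:27173467-27174391, 925 bp wide. Its pileup was 31 and 24 tags under cystine restriction and 21 and 20 tags in full medium. Over the genome background the values were 23.9 and 22.1 against 19 and 15.2, which do not overlap, but the log2 change of 0.44 ± 0.27 (SE) did not pass (adjusted p = 0.18 by limma). Its summits were scattered over 618 bp. Both cystine-restricted libraries listed 2 separate peaks there, joined into 1 region by a peak of 901 bp in full-medium replicate 1. Full-medium replicate 2 listed a peak at the first position only, so the heights compared were not all of 1 peak. The gained region lay nearer to HOXA13, at chr7:27190111-27190575, with 28 and 21 tags in the cystine-restricted libraries at summits 3 bp apart. Its fold was 4.37 and 3.25, at a −log10 q of 8.54 and 3.92. In replicate 2 it fell short of the −log10 q of 5 used as a stricter threshold.

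In HOXC 2 regions were in all 4 libraries, and neither passed the test. At chr12:54378705-54380151, 1447 bp wide, the pileup was 35 and 25 tags under cystine restriction and 26 and 23 tags in full medium. Over the genome background this was 27 and 23.1 against 23.5 and 17.4, so the media overlapped, with a log2 change of 0.30 ± 0.26 (SE; adjusted p = 0.34 by limma). At chr12:54411421-54412249, towards HOXC4, the pileup was 18 and 19 against 17 and 18 tags. Over the genome background this was 13.9 and 17.5 against 15.4 and 13.7, again overlapping, and its log2 change of 0.11 ± 0.29 (SE) was the smallest of the 5 (adjusted p = 0.77 by limma).

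**Figure D3:**
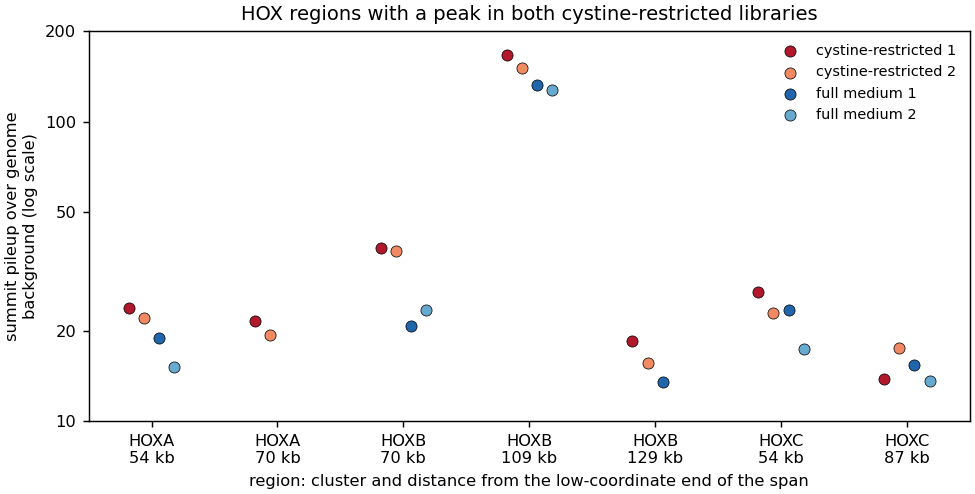
Summit pileup over the genome background (y axis, log scale) of the 7 HOX regions with a peak in both cystine-restricted libraries, 1 point per library and no point where no peak was listed. The HOXB region at 109 kb stands at 127 to 167, the other regions between 13.6 and 37.8.

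The 5 regions in all 4 libraries had a median log2 change of 0.30 (0.11 to 0.76) against 0.53 over all 10331 common regions, and 4 of the 5 lay below that median. All 5 were above 0 when scaled by the genome background, where 92.0% of all common regions were. With each library centred on its median 1 of 5 was above 0, against 46.2% of all common regions, and with the fold over local background 2 of 5, against 82.5%. Centring moved the median over all common regions from 0.53 to −0.04 and the numbers called from 4461 higher and 42 lower to 512 higher and 443 lower, and the fold over local background gave 512 higher and 3 lower. In these 2 settings no HOX region was called in either direction by limma, and at an unadjusted p under 0.05 there was 1, the HOXB region at 109 kb, with −0.28 after centring. At that threshold 10.7% of all common regions were higher and 11.6% lower after centring, and 23.8% were higher and 0.600% lower with the fold. Both cystine-restricted libraries exceeded both full-medium libraries at 3 of the 5 regions, which is 60.0% (23.1 to 88.2), against 72.8% of all common regions.

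**Figure D4:**
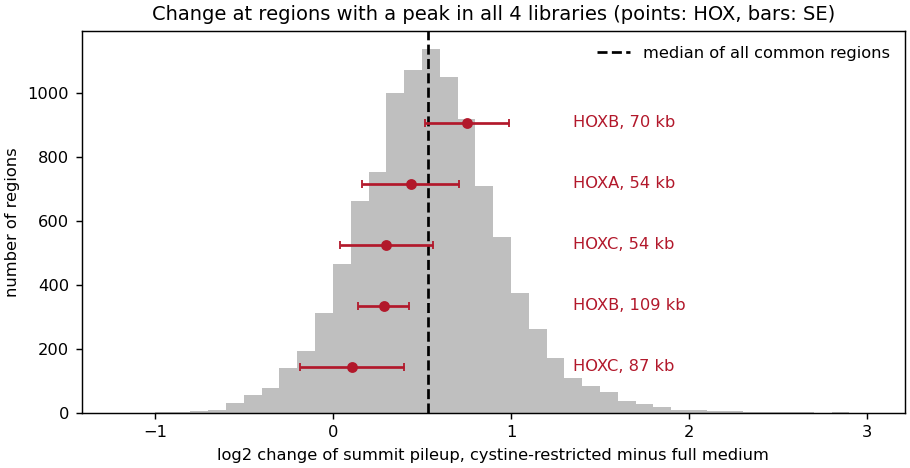
Number of regions (y axis) by log2 change of pileup, cystine-restricted minus full medium and scaled by the genome background (x axis), for the 10331 regions in all 4 libraries, in grey, with the 5 HOX regions as red points at arbitrary heights and bars of 1 SE. A HOXB region lies above the dashed median of 0.53 and the other 4 below it; 4 of the 5 fall below 0 when each library is centred on its median.

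With the 4 libraries pooled, ATF3 regions were packed more closely in the HOX spans than around them. There were 6.28 regions per 100 kb in the 4 spans, 2.15 in the flanks of the same length on each side, and 1.48 over all chromosomes, measured to the last region of each. Regions seen in 1 library made most of this difference, with 4.30 per 100 kb in the spans against 0.661 in the flanks and 0.685 over all chromosomes. Regions in all 4 libraries had 0.826, 0.744 and 0.341 per 100 kb. The flanks hold only 26 regions, and the densities were not tested. HOXA stood out from its surroundings most, with 11.4 regions per 100 kb against 0.714 in its flanks, where only 2 regions were found in 280 kb. HOXB had 6.36 against 4.55, HOXC 3.08 against 0.769 and HOXD 3.48 against 0.870. Densities were also counted by library, in the order cystine-restricted replicates 1 and 2, then full-medium replicates 1 and 2. HOXB had 3.64, 2.73, 1.82 and 2.27 against 3.18, 3.18, 2.5 and 2.73 in its flanks. It was denser than its flanks in cystine-restricted replicate 1 only. The 4 spans together had 3.97, 2.98, 1.32 and 1.82 against 1.40, 1.49, 0.992 and 1.32 in their flanks. The HOXB flanks, 440 kb, held 8 regions in all 4 libraries, compared with 2 inside the 220 kb of the cluster, or 1.82 against 0.909 per 100 kb. At a −log10 q of at least 5 the HOX density was 2.64 against 0.885 over all chromosomes, with the same number of top peaks 3.31 against 0.921, and without cystine-restricted replicate 1 4.13 against 1.19.

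HOXA regions crowded in a stretch of 20.6 kb, chr7:27169970-27190575. It held 8 of the 16, the most that any 25 kb of HOXA held. Cystine-restricted replicate 1 had a peak at 7 of these 8, replicate 2 at 3, full-medium replicate 1 at 1 and replicate 2 at 3. In HOXA every region with a full-medium peak, 5 in number, also had a cystine-restricted peak. The others, 11, were found under cystine restriction only, 10 of them in 1 library. In all 4 clusters 24 of 38 regions were of this kind, against 49.1% of all regions. Some neighbouring HOXA regions held peaks of different libraries. The regions at chr7:27239931-27240268 and chr7:27240432-27240626, towards HOXA13, are 163 bp apart. The first held peaks of cystine-restricted replicate 2 and full-medium replicate 1, and the second of cystine-restricted replicate 1 and full-medium replicate 2, with summit pileups of 10 to 13 tags. Joined, they span 696 bp with a peak in every library. The widest HOXA region, 1078 bp at chr7:27182360-27183437, had 24 tags in cystine-restricted replicate 1 and 14 tags in full-medium replicate 2 and no peak in the other libraries.

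HOXB held the 3 HOX regions that were listed in full medium alone. These were narrow regions at chr17:46614515-46614754 and chr17:46630185-46630398 in full-medium replicate 2 and at chr17:46656484-46656722 in replicate 1, with 10, 12 and 14 tags. All 3 lay between the HOXB1 end of the span and the region at 70 kb. A further HOXB region, 870 bp at chr17:46723553-46724422, was in 3 libraries, with 24 and 17 tags under cystine restriction and 15 tags in full-medium replicate 1. Between it and the HOXB13 end of the span 2 regions were found, at chr17:46755977-46756217 and chr17:46796135-46796714, neither above 11 tags.

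HOXD held few and low ATF3 peaks. Its 4 regions were 150 to 400 bp wide, each in 1 cystine-restricted library, with summit pileups of 10 to 12 tags and folds of 4.58 to 5.79. The widest, at chr2:176945370-176945769, lay at the HOXD13 end of the span. No HOXD region was shared between libraries, and neither full-medium library listed a peak, which says only that none met the caller's threshold there. Outside the span the flanks of HOXD held a region present in all 4 libraries.

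The local background, the pileup expected from the surrounding sequence, was raised at HOX peaks in each library. Its median over the genome background was 3.65 and 2.88 at HOX peaks of cystine-restricted replicates 1 and 2 and 2.58 and 2.37 at those of full-medium replicates 1 and 2. For the whole lists it was 1.87, 1.80, 1.95 and 1.74. More than 2 times the genome background was reached by 73.1% and 70.0% of HOX peaks under cystine restriction and 88.9% and 58.3% in full medium, against 41.8% to 48.2% of the whole lists. HOX peaks had a higher median pileup over the genome background than the whole list in all 4 libraries (15.8, 15.2, 15.4 and 13.3 against 13.9, 13.8, 14.5 and 12.1) and a lower median fold enrichment in all 4 (4.40, 4.71, 4.81 and 4.55 against 5.24, 5.28, 5.30 and 5.05). The local value is an average over surrounding sequence, so it contains tags of the peak itself and of its neighbours, and it is known only where a peak was listed.

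Among the clusters the local background was highest in HOXB. It reached 14.2, 12.8, 11.7 and 11.4 times the genome background at the strongest HOXB region, and at HOXA peaks of cystine-restricted replicates 1 and 2 it ran from 1.76 to 4.44 and from 1.59 to 5.33. HOXC ran from 1.38 to 3.99 over all libraries. At the 4 HOXD peaks it was 1.00 to 1.31, close to the genome value. At the 5 HOX regions in all 4 libraries the local background differed between media with a median log2 change of 0.36, against 0.37 over all common regions, and of −0.024 with each library centred on its median. None of the 5 passed limma over all common regions, where 36.9% were called higher, while 2 were higher at an unadjusted p under 0.05, against 51.4% of all common regions. Whether the local background bears on which HOX peaks were listed was not tested.

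**Figure D5:**
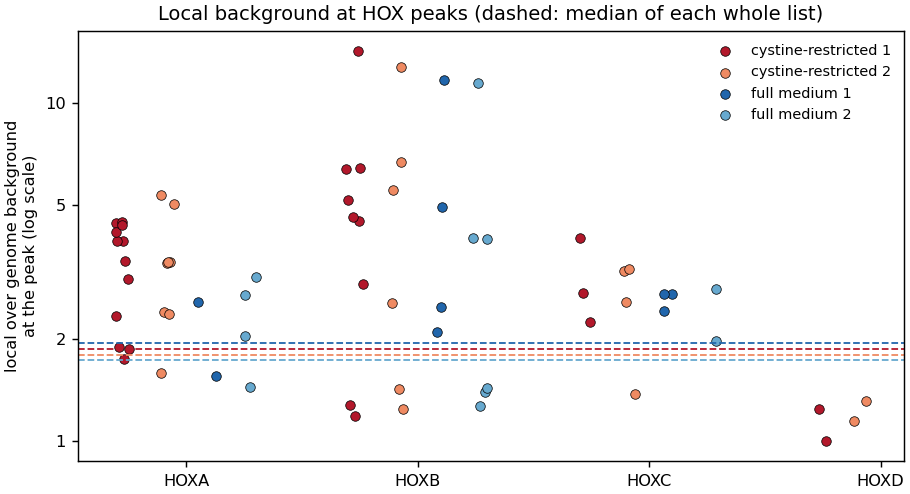
Local background over genome background (y axis, log scale) at each HOX peak, by cluster (x axis) and library (colour), with dashed lines at the median of each whole list, 1.74 to 1.95. Most points of HOXA, HOXB and HOXC lie above the lines, with HOXB reaching 14.2. Some points of these clusters, down to 1.19 in HOXB, lie below the lines, and so do the HOXD points, 1.00 to 1.31.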

How the data were processed

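ATF3 CUT&Tag of SW480 cells was analysed in 4 libraries, 2 per medium. The submitters' processing notes name hg19, MACS2 2.2.7.1, BWA 0.7.17, fastp 0.19.7 and bcl2fastq 2.17; the settings were not given in the sources used here. The deposited lists, 1 per library, give each peak a position, a fold enrichment (ratio), a −log10 p and −log10 q, and a whole-number score. Whole-number summit pileups and local backgrounds were recovered from the deposited fold and −log10 p, matching within 0.0021%. The lowest background of a list was taken as its genome background.

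Peaks on chromosomes 1 to 22 and X were merged at 1 bp of overlap. Regions in all 4 libraries were tested with limma 3.58.1 (R 4.3.3, trend) on log2 of pileup over genome background, with Benjamini-Hochberg adjustment over all 10331 and a threshold of 0.05; peak numbers by two-sided exact permutation. Python 3.11.15, numpy 2.4.6, scipy 1.17.1, pandas 2.3.3, matplotlib 3.10.9 and bedtools 2.31.1 were used, and merging, pileup recovery and limma were tested on simulated data. The HOX spans, lists and tests were chosen with earlier results of these data known. The promoter motifs, the local background comparison, the 25 kb window and the joining of peaks up to 1 kb apart were chosen after the data were seen. Named regions are the 3 strongest per cluster in all 4 libraries, every gained, lost or called region, the widest per cluster and those that changed most and least; the full-medium regions, the neighbouring pairs and the outer HOXB regions were named after their values were seen. Planned gene-level descriptions needed an hg19 annotation and were not made. The number of tags limits regions near the threshold, and Wilson intervals (95%) cover counting error only.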

Additional observations from a re-analysis of the deposited data

How the results depend on the processing

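Under cystine restriction the mean number of HOX peaks was higher in each alternative, by ratios from 1.05 (lists of equal length) to 2.56. Over same-numbered libraries as a replicate block the ratio was 2.19. With lists of equal length the media overlapped, with 12 and 9 against 9 and 11 peaks. Regions gained in HOX were 0 with lists of equal length and 0 with a minimum −log10 q of 5, 2 with reciprocal overlap of 50%, and 2 with peaks joined up to 1 kb. Leaving out a library gave 1 to 16 gained and 0 to 2 lost HOX regions. The replicate block, where 1 library of each medium is compared, gave 19 gained of 25 HOX regions with a cystine-restricted peak, and 2 lost, for the libraries numbered 1. For those numbered 2 it gave 13 gained of 20, and 4 lost. The gained and lost shares of all regions were not computed in these alternative settings. Reciprocal overlap left 2 HOX regions in all 4 libraries. It put 37 of 48 HOX regions, or 77.1%, in 1 library, against 64.1% of all regions, a narrower gap than in the main setting. HOX regions in 1 library were 10 of 16, or 62.5%, under the stricter −log10 q, against 37.4% of all regions. With lists of equal length they were 13 of 20, or 65%, against 38.5%. HOX density was 2.64 and 3.31 per 100 kb in these 2 settings, and leaving out a library gave 4.13 to 6.28. Of all common regions, centring called 512 higher and 443 lower, the fold over local background 512 and 3, and leaving out a library 1848 to 5503 and 10 to 42. HOX regions called higher were 0 after centring, 0 with the fold and 0 to 2 with a library left out. Their median log2 change was −0.27 after centring, −0.0051 with the fold and 0.27 to 0.52 with a library left out, and their local background changed by −0.024 after centring. By region, centring gave −0.13 in HOXA, −0.28 at 109 kb in HOXB and −0.27 and −0.46 at 54 and 87 kb in HOXC. The fold gave −0.021 in HOXA and −0.0051 and −0.11 in HOXC. At 87 kb in HOXC the change was −0.063 without cystine-restricted replicate 2, in a range of −0.063 to 0.28 with a library left out. The replicate block in limma changed no HOX call; deviations of same-numbered libraries correlated at 0.012 over 10331 regions, and a pair of numbers cannot show pairing. With a library left out or 1 library per medium, gained and lost require fewer libraries by definition. Not every count rose. Gained stayed at 1 without full-medium replicate 2, and lost stayed at 0 without either cystine-restricted replicate. The cause of the shifts was not tested. With a library left out, the lone library of its medium is assumed to vary like the others. Gene-level alternatives were not run. The number of tags limits HOX regions near the listing threshold, and peaks that missed it have no value.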
